A study of Mus musculus with 6 samples.

Results

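The 10 genes described here encode enzymes and chaperones that fold and hydroxylate collagen in the endoplasmic reticulum (ER): Serpinh1, P4ha1, P4ha2, P4ha3, Plod1, Plod2, Plod3, Fkbp10, Crtap and P3h1. They were measured in 6 RNA-seq libraries of cultured mouse fat cells, and all 10 were found by symbol among the 49671 genes listed. The genes were selected by their known roles, but the selection was made with results of the same comparison of knockout with control in view. Their differences between the groups are therefore given as a description and are not independent evidence of a direction.

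The knockout libraries came from cells given 4-hydroxytamoxifen (3 libraries), and the controls from cells given ethanol, its solvent (3 libraries). Both groups were the same immortalised line, isolated from inguinal white fat of C57BL/6 mice aged 3 months with both Tcf7l2 alleles floxed. The parent cells had been sorted as CD34, Sca1 and CD29 positive after removal of cells bearing CD31, CD45 or Ter-119. They carried SV40 large T antigen and a retroviral CreERT2, a Cre recombinase that becomes active when 4-hydroxytamoxifen binds it. The labels call the controls wild type, although they too held the floxed alleles and CreERT2. The drug or ethanol was given for 24 h, 2 days before differentiation with 1 µM dexamethasone, 0.5 mM isobutylmethylxanthine and 5 µg/mL insulin, and cells were differentiated to day 8. An agent at 5 nM is listed too, under code numbers that go up by 1 from library to library, and whether they stand for 1 agent or several is not given. Effects of the drug and of the deletion cannot be told apart, since no library of cells without CreERT2 given the drug was analysed here. Whether the 3 libraries of each group stem from separate cultures is not stated, so a p-value here reflects only how much these libraries vary, and that variation may be technical.

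Collagen chains are modified while they enter the ER. Prolyl 4-hydroxylases hydroxylate prolines, which stabilises the triple helix, and lysyl hydroxylases hydroxylate lysines, which later carry sugars or form crosslinks. Both kinds of enzyme need oxygen, iron, ascorbate and 2-oxoglutarate. A complex of P3h1, Crtap and cyclophilin B 3-hydroxylates selected prolines and helps chains to fold, and the chaperones Hsp47 (Serpinh1) and Fkbp65 (Fkbp10) bind procollagen. Preadipocytes make abundant fibrillar collagen, whereas adipocytes are surrounded by a basement membrane rich in type IV collagen.

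In the fit over 14946 genes, 6 of the 10 genes fell in knockout cells, 0 rose, and 4 did not pass the test. A gene is said to have risen or fallen where edgeR's quasi-likelihood test gave a Benjamini-Hochberg adjusted p under 0.05. P4ha3 fell most, followed by Serpinh1, Plod2, P3h1, Fkbp10 and Crtap. P4ha1, P4ha2, Plod1 and Plod3 did not pass. Over all genes tested, 10.5% fell and 11.9% rose, and no inference is drawn from the count beside these shares. The 10 fitted log2 fold changes, knockout over control, ran from -0.66 to -0.02 with a median of -0.30, against a median of -0.0017 over all genes tested. In 7 of the 10 genes every knockout library lay below every control library, which held for 19.3% of all genes tested. In bulk samples, fewer cells of a type and less RNA per cell cannot be told apart.

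**Figure D1:**
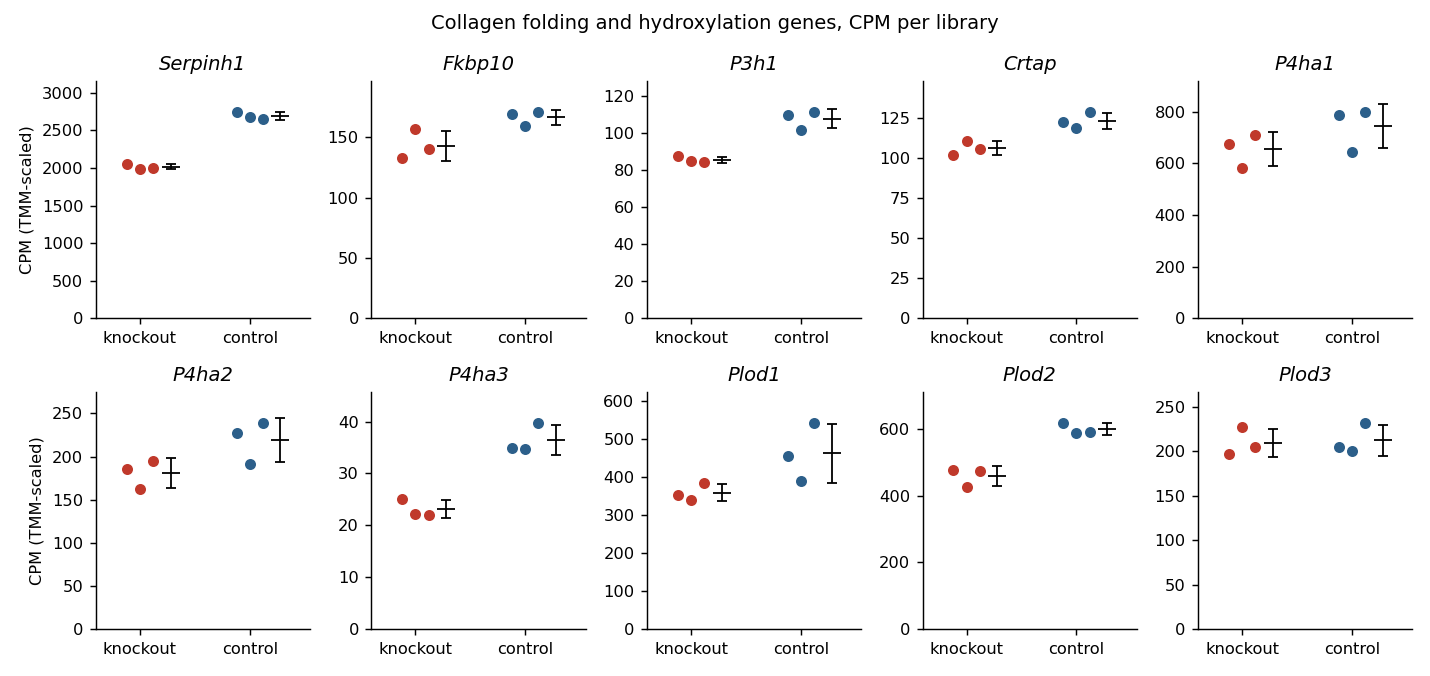
CPM of each of the 10 genes in the 3 knockout and 3 control libraries, 1 point per library, with the group mean and SD drawn beside the points. Serpinh1, P4ha3, Plod1, Plod2, Fkbp10, Crtap and P3h1 show no overlap between the groups, whereas P4ha1, P4ha2 and Plod3 do.

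Levels are given as CPM, read counts scaled with edgeR's TMM to a common library size. Total counts ran from 26764263 to 31520011 in knockout libraries and from 26621293 to 33484764 in control libraries. Tcf7l2, the targeted gene, encodes a TCF/LEF transcription factor of the Wnt pathway. It had 5.65, 6.85 and 5.86 CPM in knockout libraries, against 7.71, 6.13 and 9.11 CPM in control libraries. The groups overlapped, and the log2 fold change of -0.32 did not pass the test (SE 0.14, edgeR adjusted p = 0.125). The deleted part of the gene is not given in the sources used here, and a count over the whole gene does not separate it from the rest, so this value does not check the deletion. Knockout and control are the groups as labelled. Adipocyte markers moved with the group. All 7 of 7 rose in knockout cells, with a median log2 fold change of 0.75 (Lep, leptin, by 1.93 and Adipoq, adiponectin, by 0.75), and their summed level was 8104 to 9847 CPM in knockout libraries and 5604 to 5883 CPM in control libraries. Of 9 preadipocyte and fibroblast markers, 1 fell (Thy1, log2 fold change -0.14, adjusted p = 0.0449) and 0 rose, and their summed level was 3613 to 3735 CPM in knockout libraries and 3567 to 3782 CPM in control libraries. Members of this list lay on opposite sides: Ly6a averaged 918 CPM in knockout and 671 CPM in control cells, above in every library, whereas Pdgfra (1135 CPM in knockout, 1247 CPM in control), Itgb1 (1031 CPM in knockout, 1111 CPM in control) and Thy1 were below in every library. Ly6a, Pdgfra and Itgb1 did not pass the test. With Thy1, they are the markers of this list whose groups did not overlap, and the others overlapped. The median of the 9 log2 fold changes was -0.11. Of 4 endothelial markers 2 were tested, of which Kdr rose by 0.38. Tek lay on the other side, with a log2 fold change of -0.13 that did not pass the test (edgeR adjusted p = 0.354). Pecam1 and Cdh5 averaged 0.159 and 0.0124 CPM in knockout cells, against 0.0937 and 0.0225 CPM in control cells, and the leukocyte marker Ptprc averaged 0.0106 CPM in knockout and 0.0236 CPM in control cells. The macrophage marker Adgre1 and the T cell marker Cd3e were at 0 counts in all 6 libraries, and Cd68 averaged 1.75 CPM in knockout and 1.44 CPM in control cells. None of the tested blood and immune (1 of 5), mesothelial (1 of 3) or chondrocyte and osteoblast markers (2 of 6) passed. The most abundant of the last 2 lists were Lrrn4, with 0.646 CPM in knockout and 0.326 CPM in control cells, and Sox9, with 3.66 CPM in knockout and 3.26 CPM in control cells. Beside the counts of these marker lists stand the 10.5% of all genes tested that fell and the 11.9% that rose. The part of the adipocyte markers in the differences of the 10 genes was not tested.

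Serpinh1 (ENSMUSG00000070436, chr7:99345376-99353239, minus strand, GRCm38) encodes Hsp47, a chaperone that binds the folded procollagen triple helix and accompanies it out of the ER. It was the most abundant of the 10, with 2058, 1993 and 1998 CPM in knockout libraries, against 2746, 2680 and 2646 CPM in control libraries. It also varied least within a group, by 0.05 on the log2 scale between the lowest and highest library in either group, so the groups stood far apart relative to their own spread. Serpinh1 fell by 0.42 on the log2 scale (SE 0.05, edgeR adjusted p = 2.5e-05), which is 25.1% below control. Leaving out any library, and every other alternative run, kept the call, with log2 fold changes between -0.43 and -0.40.

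Fkbp10 (ENSMUSG00000001555, chr11:100415697-100424824, plus strand) encodes Fkbp65, a peptidyl-prolyl isomerase that acts with Hsp47 and is known in human osteogenesis imperfecta. It had 132, 157 and 140 CPM in knockout libraries, against 169, 159 and 171 CPM in control libraries. The highest knockout library was only just below the lowest control library. The fall of 0.22 on the log2 scale passed the test (SE 0.06, adjusted p = 0.0189). It did not pass without control replicate 1 (adjusted p = 0.0983), control replicate 3 (0.0645), knockout replicate 1 (0.0696) or knockout replicate 3 (0.0870). Nt5c3b overlaps 6.58% of its exon bases on the opposite strand, and whether counting used strand is not given in the sources used here.

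P3h1 and Crtap form the prolyl 3-hydroxylase complex together with cyclophilin B. P3h1 (ENSMUSG00000028641, chr4:119232915-119248975, plus strand) supplies the catalytic activity. It had 87.4, 84.8 and 84.3 CPM in knockout libraries, against 110, 102 and 111 CPM in control libraries. Crtap (ENSMUSG00000032431, chr9:114375134-114390675, minus strand), the cartilage-associated protein, lacks catalytic activity and holds the complex together. It had 102, 111 and 106 CPM in knockout libraries, against 123, 119 and 129 CPM in control libraries. Neither gene overlapped between the groups. P3h1 fell by 0.33 on the log2 scale (SE 0.05, edgeR adjusted p = 0.00029) and Crtap fell by 0.22 (SE 0.05, edgeR adjusted p = 0.00735), and both kept the call under all 16 alternatives. Per kilobase of exon, P3h1 made up 27.0 ± 1.10% of the summed P3h1 and Crtap level in knockout cells, against 28.6 ± 0.531% in control cells (SD, n = 3 each). Every knockout library lay below every control library, but only just, with 28.22% in knockout replicate 1 and 28.23% in control replicate 2.

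The catalytic subunit of prolyl 4-hydroxylase comes in 3 forms, P4ha1, P4ha2 and P4ha3, each of which pairs with the beta subunit P4hb. Promoter sequences of all 3, and of Plod3, which held the single TCF/LEF match among the members, follow. The 3 P4ha genes were chosen because P4ha3 passed the test of knockout against control and P4ha1 and P4ha2 did not. That contrast is not firm, since P4ha1 passed under 3 and P4ha2 under 5 of the 16 alternatives. A link between promoter letters and the differences was not tested. The sequences are from RefSeq on GRCm38.p6, run 5′ to 3′ on the gene's strand, and span 250 bases before to 50 after the annotated start. Capitals mark matches, on either strand, to the TCF/LEF letters CTTTGAT or CTTTGTT, to the hypoxia response cores ACGTG or GCGTG, or to the heat shock half-site GAANNTTC.
P4ha1, chr10:59323046-59323345, plus strand: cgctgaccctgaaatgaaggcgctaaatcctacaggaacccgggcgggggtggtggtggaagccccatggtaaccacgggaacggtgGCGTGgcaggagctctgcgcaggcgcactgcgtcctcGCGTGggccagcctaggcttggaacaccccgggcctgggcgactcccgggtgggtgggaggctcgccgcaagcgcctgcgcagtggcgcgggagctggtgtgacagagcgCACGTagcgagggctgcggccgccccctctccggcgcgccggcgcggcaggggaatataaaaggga
P4ha2, chr11:54100674-54100973, plus strand: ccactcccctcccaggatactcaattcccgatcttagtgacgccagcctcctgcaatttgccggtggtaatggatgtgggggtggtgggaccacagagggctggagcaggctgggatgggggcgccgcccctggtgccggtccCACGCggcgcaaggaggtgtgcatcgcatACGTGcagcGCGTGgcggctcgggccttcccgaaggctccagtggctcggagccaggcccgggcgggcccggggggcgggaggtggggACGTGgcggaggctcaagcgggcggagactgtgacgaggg
P4ha3, chr7:100285270-100285569, plus strand: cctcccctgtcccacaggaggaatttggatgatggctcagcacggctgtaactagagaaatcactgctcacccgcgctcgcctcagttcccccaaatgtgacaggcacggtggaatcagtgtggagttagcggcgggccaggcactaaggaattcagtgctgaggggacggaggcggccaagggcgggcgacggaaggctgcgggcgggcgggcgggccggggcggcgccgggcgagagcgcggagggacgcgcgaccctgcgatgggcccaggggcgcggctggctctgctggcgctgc
Plod3, chr5:136986769-136987068, plus strand: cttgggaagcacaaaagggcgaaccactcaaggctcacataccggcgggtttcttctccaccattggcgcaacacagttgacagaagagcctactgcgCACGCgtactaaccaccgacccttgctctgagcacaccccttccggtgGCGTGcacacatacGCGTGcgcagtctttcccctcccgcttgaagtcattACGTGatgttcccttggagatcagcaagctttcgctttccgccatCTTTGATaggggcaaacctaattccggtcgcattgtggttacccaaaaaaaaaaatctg

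ACGTG, read on both strands, was found in 5 of the 9 windows of the 8 members in the RefSeq table, against 19.6% of all 32851 windows of this length. These were windows of P3h1, P4ha1, P4ha2, Plod3 and Serpinh1. GCGTG was found in 6 of the 9 member windows, against 32.4% of all windows. Those were windows of Crtap, P3h1, P4ha1, P4ha2, Plod1 and Plod3. Plod2 and Fkbp10 had no window. The share of G and C was 70.3% in P4ha1 and P4ha2, 69.3% in P4ha3 and 53.3% in Plod3, against a median of 52.7% over all windows, and base composition alone changes how often such letters occur. P4ha1 held GCGTG at 163 and 126 bases before the start and ACGTG on the reverse strand at 16 bases before it. P4ha2 held ACGTG at 78 bases before the start and at 10 bases after it, and GCGTG at 69 bases before it and, on the reverse strand, at 107 bases before it. Plod3 held ACGTG at 54 bases before the start, and GCGTG at 104 and 90 bases before it and, on the reverse strand, at 152 bases before it. P4ha3 held none of the 5 motifs in this window. CTTTGAT was found in 3.73% of all windows and, among the members, in Plod3, at 9 bases before the start. CTTTGTT was in 5.85% of all windows and in no member window, and GAANNTTC was in 7.86% of all windows and in Plod1. A match describes letters and not a bound site.

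P4ha3 (ENSMUSG00000051048, chr7:100285520-100319699, plus strand) was the scarcest of the 10 and the one that fell most. It had 25.1, 22.2 and 22.0 CPM in knockout libraries, against 34.8, 34.8 and 39.8 CPM in control libraries. No knockout library reached the control libraries. P4ha3 fell by 0.66 on the log2 scale (SE 0.07, edgeR adjusted p = 2.82e-05), 36.6% below control, and stayed between -0.72 and -0.56 under the alternatives.

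P4ha1 (ENSMUSG00000019916, chr10:59323296-59373304, plus strand) encodes the most widely expressed form. It had 674, 583 and 709 CPM in knockout libraries, against 785, 644 and 799 CPM in control libraries. Control replicate 2 lay below knockout replicates 1 and 3, so the groups overlapped, and the log2 fold change of -0.18 did not pass the test (SE 0.10, adjusted p = 0.235). P4ha2 (ENSMUSG00000018906, chr11:54100095-54131665, plus strand) had 186, 162 and 195 CPM in knockout libraries, against 228, 191 and 239 CPM in control libraries. Here too control replicate 2 lay within the knockout range, and the log2 fold change of -0.28 did not pass (SE 0.10, adjusted p = 0.0738). These values turned on single libraries. Without control replicate 2 both genes fell, P4ha1 by 0.28 (adjusted p = 0.0252) and P4ha2 by 0.37 (adjusted p = 0.00479). Without knockout replicate 2 neither passed, with log2 fold changes of -0.10 for P4ha1 (adjusted p = 0.523) and -0.20 for P4ha2 (adjusted p = 0.200).

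As a share of the summed P4ha level per kilobase, P4ha1 took 81.4 ± 0.365% in knockout cells and 79.4 ± 0.565% in control cells, P4ha2 took 14.8 ± 0.0431% in knockout and 15.5 ± 0.177% in control cells, and P4ha3 took 3.78 ± 0.395% in knockout and 5.15 ± 0.468% in control cells (SD, n = 3 each). For each share the groups did not overlap. The shares depend on the length used. With the longest transcript, P4ha1 took 70.2% in knockout and 67.9% in control cells, and P4ha2 took 25.6% in knockout and 26.5% in control cells. P4ha3 then took 4.18% in knockout and 5.64% in control cells, and again no share overlapped between the groups. P4ha3 was thus the smallest form in either group and smaller still in knockout cells.

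Lysyl hydroxylases are encoded by Plod1, Plod2 and Plod3. Plod2 (ENSMUSG00000032374, chr9:92542223-92608428, plus strand) hydroxylates lysines in the telopeptides at the ends of the chains, where crosslinks form. It had 479, 426 and 475 CPM in knockout libraries, against 620, 589 and 593 CPM in control libraries. The groups stood apart, and Plod2 fell by 0.39 on the log2 scale (SE 0.05, edgeR adjusted p = 0.000156). It kept the call under all 16 alternatives.

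Plod1 (ENSMUSG00000019055, chr4:147909753-147936767, minus strand) acts on lysines within the helix. It had 352, 340 and 384 CPM in knockout libraries, against 456, 389 and 544 CPM in control libraries. Every knockout library lay below every control library, but control replicate 2 was only just above knockout replicate 3 and the controls spread over 0.48 on the log2 scale. The log2 fold change of -0.37 did not pass the test (SE 0.12, adjusted p = 0.0696), and it depended on the control libraries. Without control replicate 2 the fall was 0.48 (adjusted p = 0.00174), without control replicate 3 it was smaller, 0.24, and passed (adjusted p = 0.0406), and without knockout replicate 2 the log2 fold change of -0.33 did not pass (adjusted p = 0.290). Plod3 (ENSMUSG00000004846, chr5:136987019-136996648, plus strand) also transfers sugars to hydroxylysine. It had 197, 227 and 205 CPM in knockout libraries, against 204, 201 and 232 CPM in control libraries. These ranges overlapped almost entirely, and the log2 fold change of -0.02 did not pass (SE 0.07, adjusted p = 0.859). Znhit1 overlaps 11.7% of Plod3's exon bases on the opposite strand. Plod3's share of the summed Plod level per kilobase was 25.1 ± 2.47% in knockout cells, against 20.7 ± 0.746% in control cells (SD, n = 3 each), with no overlap between the groups.

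**Figure D2:**
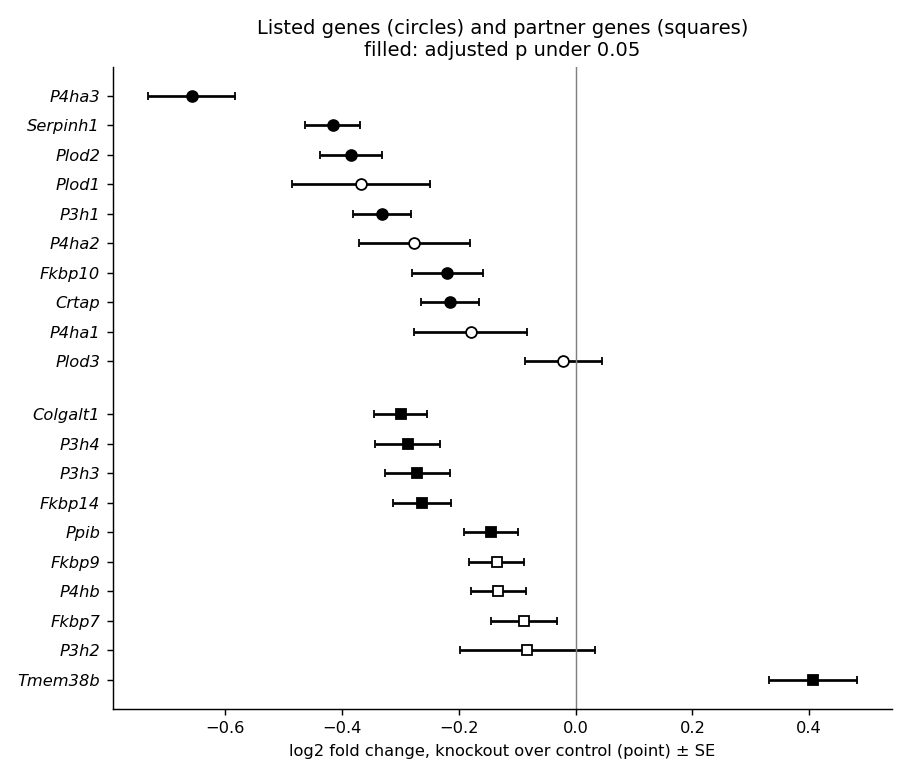
Fitted log2 fold change, knockout over control, of each of the 10 genes and of the tested partner genes, as circles and squares with bars of 1 SE, filled where the adjusted p was under 0.05. The 10 genes run from -0.66 for P4ha3 to -0.02 for Plod3.

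Per kilobase of exon, which allows levels to be compared between genes, the 10 genes kept the same order of mean level in both groups. Serpinh1 led with 825 ± 14.7 CPM per kilobase in knockout cells, against 1101 ± 20.8 in control cells, and P4ha3 was last with 7.37 ± 0.542 in knockout and 11.6 ± 0.920 in control cells (SD, n = 3 each). The highest level was 112 times the lowest in knockout cells and 94.7 times the lowest in control cells. Between them came P4ha1, Plod2, Crtap, Plod1, Fkbp10, Plod3, P4ha2 and P3h1, in falling order. The ranges of neighbours in that order, over the 3 libraries of a group, did not overlap, except those of Plod1 and Fkbp10 in both groups, Fkbp10 and Plod3 in knockout cells, and Crtap and Plod1 in control cells. The order depends on the length used. With the longest transcript, Plod1 ranked 4, Crtap 5, P4ha2 6 and Fkbp10 8 in control cells. P4ha2 then averaged 71.6 CPM per kilobase in control cells, above Plod3 with 64.8. In knockout cells it averaged 59.2, below Plod3 with 63.8, so the groups no longer shared 1 order.

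**Figure D3:**
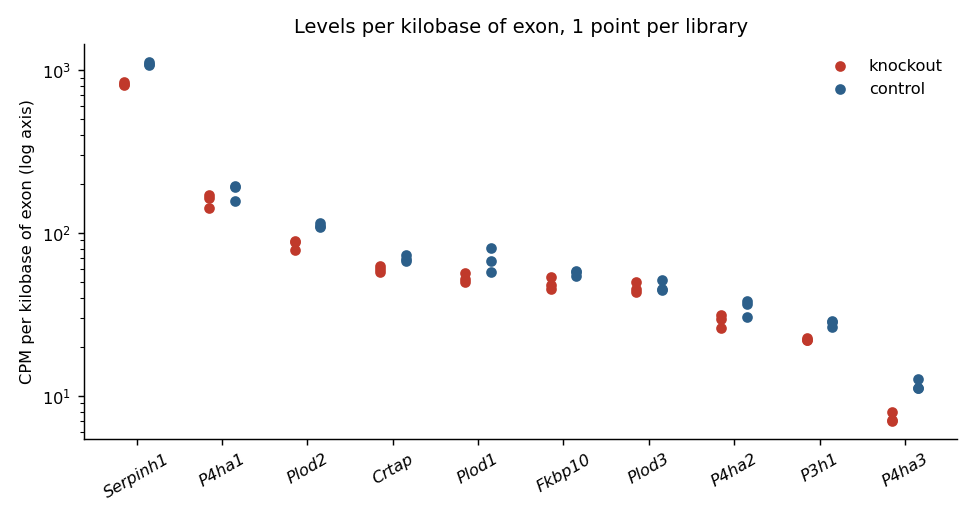
CPM per kilobase of exon of each of the 10 genes on a log axis, 1 point per library, knockout beside control. Serpinh1 stands highest and P4ha3 lowest in both groups.

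Within the groups, the members also moved by library. P4ha1, P4ha2, Plod1 and Plod2 were lowest in knockout replicate 2 among the knockout libraries and in control replicate 2 among the controls. Of all genes tested, 11.1% shared this pattern, and so did 14 of 15 genes in a list of hypoxia-induced genes. The exception in the list, Car9, averaged 0.299 CPM in knockout cells and 0.364 CPM in control cells. The list was drawn up without the members, and absence from it does not mean that a member is not induced by hypoxia. The low in both replicates 2 was also found in 3 of 10 partner genes of collagen folding and 7 of 19 procollagen export genes. So it was in 5 of 20 general ER chaperones and stress genes and 4 of 9 other 2-oxoglutarate-dependent hydroxylases, Egln1 and Egln3 among them. It was found in 1 of 12 cleavage and crosslinking genes, 1 of 10 fibrillar and 0 of 4 basement membrane collagen chains. Plod3, Fkbp10 and Crtap were instead highest in knockout replicate 2 and control replicate 3, as were 19.3% of all genes tested. This pattern was noticed after the values were seen, and it is given with no test. Of the hypoxia-induced genes, 2 rose in knockout cells, Egln3 (log2 fold change 1.11, adjusted p = 0.0234), an oxygen-dependent prolyl hydroxylase acting on HIF, and Ndrg1 (0.65, adjusted p = 2e-05), a stress-responsive gene, and 0 fell. Over the 15, the median was 0.19. Beside these counts, 11.9% of all genes tested rose and 10.5% fell, and no inference is drawn from them. Without both replicates 2, a setting chosen after seeing the data, 9 of the 10 genes fell, among 9.45% of all genes tested: P4ha1 by 0.20 (adjusted p = 0.0116), P4ha2 by 0.29 (adjusted p = 7.16e-04) and Plod1 by 0.44 (adjusted p = 0.00765) passed there. Without control replicate 3 and knockout replicate 2, 6 of the 10 fell, among 12.7% of all genes tested, and P4ha1 (-0.05, adjusted p = 0.772), P4ha2 (-0.13, adjusted p = 0.270) and Plod1 (-0.20, adjusted p = 0.0985) did not pass.

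**Figure D4:**
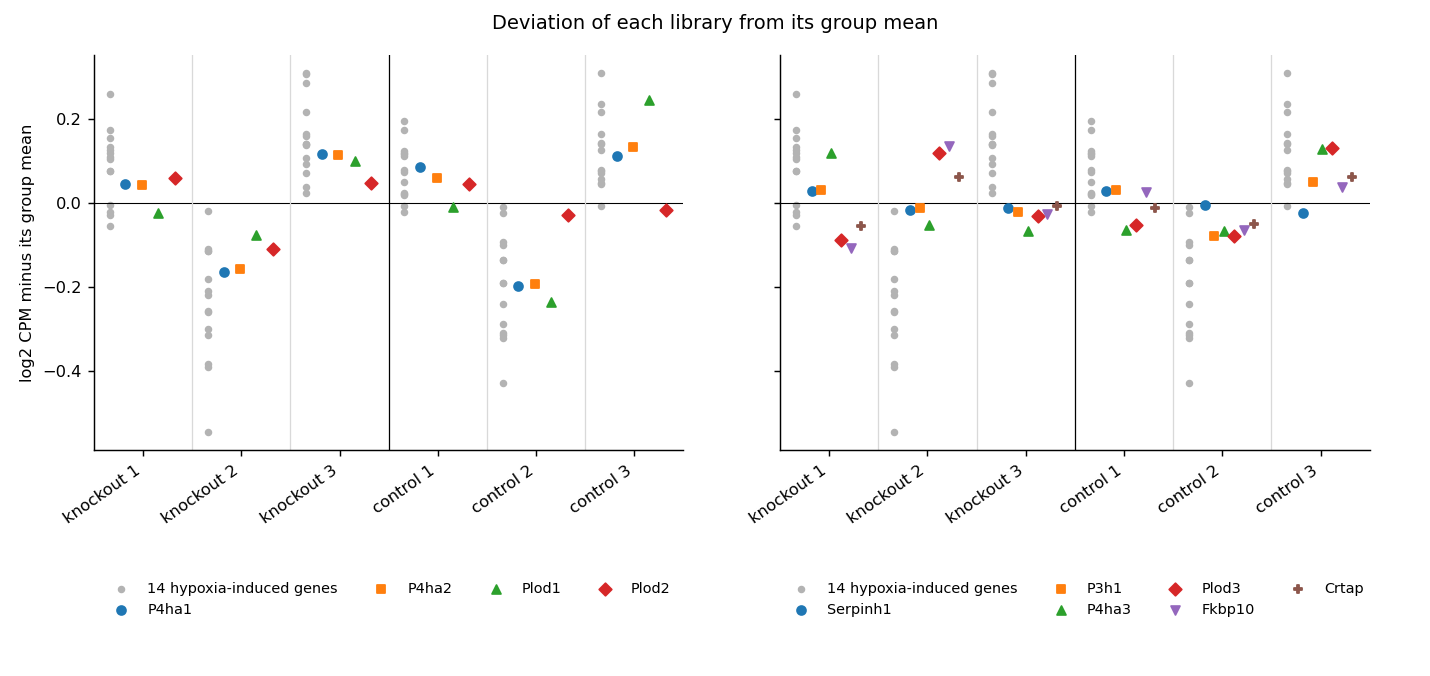
Log2 CPM of each library minus its group's mean, with P4ha1, P4ha2, Plod1 and Plod2 on the left, the other 6 members on the right, and 14 hypoxia-induced genes in grey in both panels (Car9, near 0 CPM, is not drawn). The 4 genes on the left and the grey points lie below 0 in knockout replicate 2 and control replicate 2, and so do Serpinh1, P4ha3 and P3h1 on the right, at -0.08 or nearer to 0.

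Of 11 partner enzymes and chaperones of collagen folding, 10 were tested, of which 5 fell and 1 rose, with a median log2 fold change of -0.14. Over all genes tested, 10.5% fell and 11.9% rose, and no inference is drawn from the counts of this list or of the lists below. Colgalt2 was too low to be tested. Colgalt1, which transfers galactose to hydroxylysine, fell by 0.30 (adjusted p = 0.000313). P3h4, a Crtap relative, fell by 0.29 (adjusted p = 0.00208), and P3h3, a prolyl 3-hydroxylase, fell by 0.27 (adjusted p = 0.00318). Fkbp14, an ER isomerase, fell by 0.26 (adjusted p = 0.00175) and Ppib, cyclophilin B, by 0.15 (adjusted p = 0.0369). Tmem38b, an ER cation channel, was the exception. It had 19.3 ± 1.17 CPM in knockout cells, against 14.5 ± 0.577 CPM in control cells (SD, n = 3 each), and rose by 0.41 on the log2 scale (adjusted p = 0.00152). P4hb, the shared beta subunit of the prolyl 4-hydroxylases, named here after its values were seen, averaged 1587 ± 42.2 CPM in knockout and 1739 ± 44.4 CPM in control cells (SD, n = 3 each), and its log2 fold change of -0.13 did not pass the test (adjusted p = 0.0621).

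Some of the collagen chains that these proteins act on also fell. Of 10 fibrillar collagen chains tested, 4 fell and 0 rose, with a median log2 fold change of -0.18. Col5a3 fell by 0.49 and Col3a1 by 0.28 on the log2 scale. The type I chains, named here after their values were seen, overlapped between the groups and did not pass the test. Their log2 fold changes were 0.15 for Col1a1 (adjusted p = 0.844) and -0.26 for Col1a2 (adjusted p = 0.126). Of 4 basement membrane chains tested, 2 fell, Col4a2 by 0.49 and Col4a1 by 0.40. Summed, the 10 genes gave 4239 ± 116 CPM in knockout cells, against 5363 ± 220 CPM in control cells, and the fibrillar chains gave 31110 ± 885 CPM in knockout and 37366 ± 1153 CPM in control cells (SD, n = 3 each). Per 1000 counts of fibrillar collagen, the 10 genes gave 136 ± 6.92 counts in knockout libraries and 144 ± 7.81 in control libraries, and the groups overlapped. Serpinh1 alone gave 64.8 ± 1.74 in knockout libraries and 72.1 ± 3.62 in control libraries, with no overlap, and the other 9 gave 71.5 ± 5.23 in knockout and 71.5 ± 6.00 in control libraries. Col3a1 made up most of the fibrillar counts, and leaving it out, a choice made after seeing the data, ended the separation: Serpinh1 then gave 191 ± 15.3 counts per 1000 in knockout and 218 ± 17.0 in control libraries, with overlap. The 10 genes gave 402 ± 38.7 in knockout and 433 ± 27.6 in control libraries, again with overlap.

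**Figure D5:**
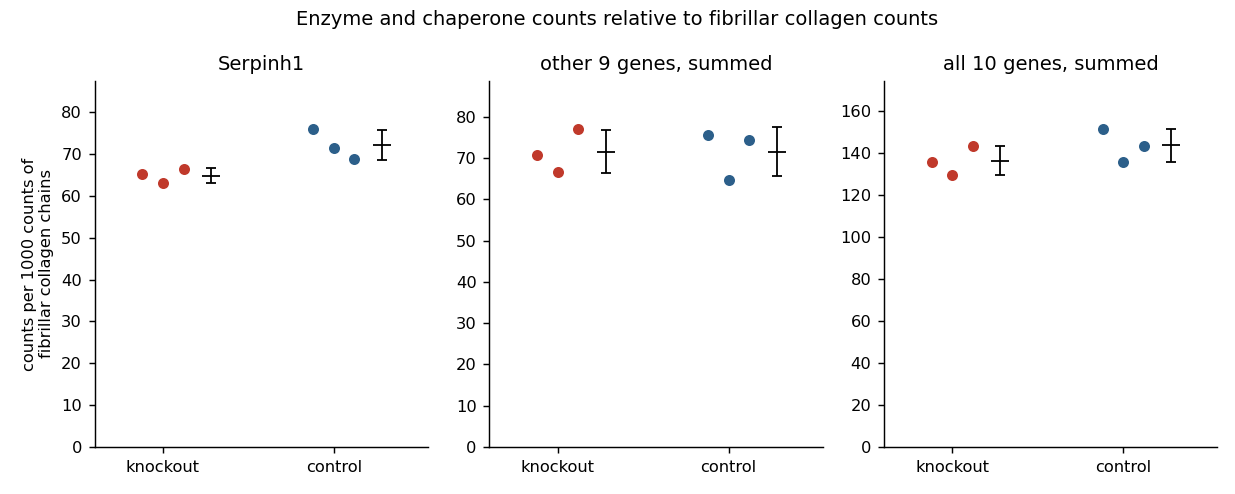
Counts of Serpinh1, of the other 9 genes and of all 10 per 1000 counts of fibrillar collagen chains, 1 point per library, knockout left of control, with the mean and SD beside the points. Of the 3 panels, only that of Serpinh1 has all 3 knockout libraries below all 3 control libraries, which did not hold without Col3a1.

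Of 19 genes for export of procollagen from the ER, 6 fell and 0 rose, with a median log2 fold change of -0.12. Beside the counts in this paragraph stand the 10.5% of all genes tested that fell and the 11.9% that rose. Kdelr3 fell by 0.38 and Kdelr2 by 0.30, both receptors that return ER proteins from the Golgi. Of 20 general ER chaperones and stress genes, 9 fell and 1 rose, with a median of -0.15. Ddit3, a stress-induced transcription factor, fell by 0.42, Manf by 0.31, and Dnajb9, an Hsp70 co-chaperone, rose by 0.40. Of 12 cleavage and crosslinking genes tested, 3 rose and 2 fell. Pcolce2, an enhancer of procollagen C-proteinase, rose by 1.01 and Tll1, a procollagen C-proteinase, by 0.84, whereas the lysyl oxidases Loxl2 and Lox fell by 0.36 and 0.19. Of 9 other 2-oxoglutarate-dependent hydroxylases, 1 rose (Egln3) and 1 fell (Riox1, by 0.39).

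The genes whose pattern over the 6 libraries was most like that of P4ha3, the member that fell most, were Mfap3 (Pearson r = 0.995), Snrpe (r = 0.995) and Egfr (r = 0.994) among 10557 genes compared. All 6 points hold the difference between the groups, which P4ha3 was selected on, so r is a description. These 3 genes fell by 0.19, 0.32 and 0.33 on the log2 scale.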

How the data were processed

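RNA was measured in 6 libraries of total RNA depleted of ribosomal RNA, made with a kit that keeps strand, as the protocols in the labels state. The authors deposited raw read counts per Ensembl gene in 1 table with 1 column per library. STAR 2.5.2b, DESeq2 1.16.0, featureCounts 1.5.1 and GRCm38 are named in the submitters' processing notes, with no roles. For the annotation release, strand setting and handling of multi-mapping reads, these sources give nothing. Columns were matched to samples by title and to groups by genotype label.

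The members and gene lists were chosen with earlier results of these data known. Knockout was compared with control over all genes by the quasi-likelihood test of edgeR 4.0.16 (R 4.3.3), with TMM scaling, filterByExpr, robust dispersions, group as the only term, and Benjamini-Hochberg adjustment over the 14946 genes tested. CPM values were computed here from the deposited counts. Each SE is the absolute log2 fold change over the square root of F. Levels per kilobase used the union of exons in GENCODE M21 (GRCm38). Named genes were the 10 members, every partner that passed the test, up to 2 per direction of each other list at an average log2 CPM of at least 0, the 3 genes most like the member that fell most, and Tcf7l2. In a list where none passed, the most abundant gene was named. Genes outside this rule were named too: P4hb, the type I collagen chains, Car9 and cell type markers that did not pass the test or were not tested. Alternatives were other scalings and filters, DESeq2 1.42.0, limma-voom 3.58.1, an adjusted p of 0.01, and leaving out libraries. Leaving out both replicates 2, or Col3a1 from the collagen counts, was chosen after seeing the data. Replicate numbers follow accession order and pair nothing.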

Additional observations from a re-analysis of the deposited data

How the results depend on the processing

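Serpinh1, P4ha3, Plod2, Crtap and P3h1 fell under all 16 alternatives run. Of 160 member values, 139 kept their direction and their side of the threshold, 14 newly passed, 5 no longer passed and 2 changed sign. The 5 were all Fkbp10: leaving out control replicate 1 or 3 or knockout replicate 1 or 3, and the threshold of 0.01. The sign of Plod3 turned when control replicate 3 was left out (log2 fold change 0.043, adjusted p = 0.686) or knockout replicate 1 (0.023, 0.860), and its values with libraries left out ran from -0.12, without both replicates 2, to 0.043. P4ha2 and Plod1 passed with DESeq2 (adjusted p = 0.0102 and 7.97e-04) and limma-voom (0.0390 and 0.0203). With no filter on low counts 9 of the 10 members fell, among them P4ha1 (adjusted p = 0.0108), P4ha2 (9.97e-06) and Plod1 (0.00537). In that setting 3673 of 28409 genes tested were called in either direction, and no inference is drawn from the count. Adjusted p was far lower there for other members too, as for Serpinh1 (3.64e-15, against 2.52e-05 in the main fit). With libraries left out, the log2 fold changes ran from -0.28 to -0.05 for P4ha1, from -0.37 to -0.13 for P4ha2 and from -0.48 to -0.20 for Plod1, the smallest without control replicate 3 and knockout replicate 2 in each. The count of members that fell ran from 5 to 9 when 1 library was left out. Genes called in either direction then ran from 2145 of 15151 tested (without control replicate 1) to 3475 of 15153 (without knockout replicate 2). The 9 came without control replicate 2, where 2428 of 15321 were called. Tcf7l2 fell without control replicate 2 (-0.46, adjusted p = 0.0322) and without both replicates 2 (-0.54, adjusted p = 0.00640), and did not pass under the others, with -0.19 without control replicate 3 (adjusted p = 0.377). Over all genes, 1934 were called at 0.01, and 2145 (without control replicate 1) to 3957 (without control replicate 3 and knockout replicate 2) when libraries were left out, with 2178 without knockout replicate 3, against 3346 with all libraries. With the length of the longest transcript, 6 of the 10 members kept their rank by level. The causes were not tested. No paired analysis was possible because no replicate numbers are shared between the groups in the labels. Precision is limited by 3 libraries per group.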
